A study of Rattus norvegicus with 9 samples.

Results

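Across cells of the rat tibial osteotomy site, 8 genes were followed: the neutrophil-attracting ligands Cxcl1, Cxcl2 and Cxcl3, their receptor Cxcr2, the inflammatory ligands Ccl2, Ccl3 and Ccl4, and the B-cell attractant Cxcl13. The 8 genes, of 41801 listed in the count tables, were chosen by symbol from earlier readings of these same measurements, so that levels by cell class are given here as a description. The study used male Sprague-Dawley rats, 6 to 8 weeks old, with a 3-mm circular osteotomy of the proximal tibia and a 4-mm full-thickness skin wound on the top of the same foot. In the TO group nothing else was done, and in the TOE group radial extracorporeal shock waves (rESWT, pressure waves applied through the skin) were given over the osteotomy on days 2 and 4. Tissue from the bone defect was dissociated 4 or 24 h after each session and sequenced as single cells with 3' unique molecular identifiers (UMIs), 1 library for each condition.

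The libraries were TO 2d 0h (the baseline before the session of day 2), TO 2d 4h, TO 4d 4h, TO 4d 24h, TOE 2d 4h, TOE 2d 24h, TOE 4d 4h and TOE 4d 24h. The TO counterpart of TOE 2d 24h was not analysed here. TO and TOE could therefore be set side by side at 3 times (2d 4h, 4d 4h, 4d 24h). The series names 9 rats, and which rat gave which library was not stated. With 1 library a condition no test between TO and TOE was possible within a time. None was made across the 3 times, since the genes were chosen with these values known, and every interval below is a 95% interval of counting error only, which holds no difference between animals. Every rat carried both wounds, so the skin wound is common to TO and TOE.

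Chemokines are small secreted proteins that draw leukocytes along a gradient towards injured tissue. Cxcl1, Cxcl2 and Cxcl3 carry an ELR motif and bind Cxcr2, the receptor through which neutrophils leave the marrow and enter a wound, while Ccl2 recruits monocytes through Ccr2, and Ccl3 and Ccl4 act on monocytes, macrophages and T cells. Most of these ligands are switched on rapidly by NF-κB after interleukin-1, TNF or microbial products, and Cxcl13, which is made by stromal cells of lymphoid tissue, guides B cells through Cxcr5. In bone repair the early haematoma holds neutrophils and monocytes, followed by macrophages and mesenchymal cells that build the callus.

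The 8 libraries held 116711 barcodes, of which 111646 were kept, with 12007 to 16409 cells and 90987814 to 135406897 UMIs of kept cells a library. Any pair of libraries shared 40 to 110 barcodes, at most 0.783% of the smaller library. The cells fell into 32 clusters, grouped by marker genes into classes: 64282 B-cell-like cells (57.6%), 12359 neutrophil-like, 11927 monocyte-like, 2141 macrophage-like, 1299 mesenchymal-like and 1055 T/NK-cell-like cells were the ones used most here. The members other than Cxcr2 were among the 2000 variable genes used for clustering. TO 2d 4h held 18.0% erythroid-like cells, against 0.675% to 5.96% in the other libraries. It gave 1992 of the 2076 cells of an erythroid-like cluster with a median of 1874 UMIs. Library TOE 4d 24h stood apart: 63.0% of its neutrophil-like cells lay in a cluster led by Mmp8, 94.1% of its monocyte-like cells lay in a cluster led by Mnda, and its neutrophil-like cells held an erythroid marker sum (9 genes, none at 0) of 21.9 CPM (counts per 1000000 UMIs of the cells summed) against 597 to 1644 CPM in the other libraries. The Mnda-led cluster had 8 of 8 monocyte markers raised, but none of them among its leading genes. Fcnb, listed as a neutrophil marker, was among those genes, though its mean level was highest in the monocyte-like class (3913 CPM). On these leading genes, monocyte-like cells were compared between TO and TOE cluster by cluster. A neutrophil-like cluster led by Hcar2 likewise had no neutrophil marker among its leading genes, and that class was compared both whole and by cluster. At 4d 24h each comparison crosses the split of TOE 4d 24h, and the part of that split in the differences was not tested. The 4 h libraries stood apart too. A Cd14-led cluster held 70.1% to 79.6% of monocyte-like cells in TO 2d 0h, TO 4d 24h and TOE 2d 24h. In the 4 h libraries it held 0.174% to 0.27%, and in TOE 4d 24h 4.37%. A B-cell-like cluster had 3490 to 4219 cells in TO 2d 0h, TO 4d 24h and TOE 2d 24h, 33 to 56 in each 4 h library and 68 in TOE 4d 24h.

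Cxcl1, Cxcl2 and Cxcl3 lie in the chemokine gene cluster of chromosome 14, Ccl2, Ccl3 and Ccl4 on chromosome 10 and Cxcr2 on chromosome 9. In the RefSeq gene table of build GRCr8 no protein-coding gene lies between Cxcl1 and Cxcl2 or between Ccl3 and Ccl4, and Cxcr2 lies beside Cxcr1. RefSeq promoters of build GRCr8 were held for 4 of the 8 members, and the 150 bases before each start are shown because they set 2 ligands of Cxcr2 beside the receptor itself and Cxcl13. Capitals mark matches to GGNNTTTCC on either strand, an NF-κB-type motif, and the strand of each gene is given after its position.
Cxcl1, chr14:17479322-17479471, minus strand: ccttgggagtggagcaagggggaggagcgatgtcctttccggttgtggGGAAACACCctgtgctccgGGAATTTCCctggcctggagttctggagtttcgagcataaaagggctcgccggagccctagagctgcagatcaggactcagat
Cxcl2, chr14:17467256-17467405, minus strand: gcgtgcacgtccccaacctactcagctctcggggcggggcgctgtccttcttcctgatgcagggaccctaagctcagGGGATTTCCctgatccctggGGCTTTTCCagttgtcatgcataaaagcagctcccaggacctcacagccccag
Cxcr2, chr9:83178495-83178644, plus strand: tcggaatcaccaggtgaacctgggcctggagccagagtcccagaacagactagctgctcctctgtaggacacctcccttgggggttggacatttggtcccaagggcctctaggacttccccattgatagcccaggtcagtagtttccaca
Cxcl13, chr14:13917921-13918070, minus strand: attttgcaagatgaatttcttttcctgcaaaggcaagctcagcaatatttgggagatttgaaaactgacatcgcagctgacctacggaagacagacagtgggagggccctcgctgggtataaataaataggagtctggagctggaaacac
Cxcl1 and Cxcl2 held 2 matches each, and Cxcr2 and Cxcl13 held 0. Of 33469 promoter windows of the same length, 3.01% held at least 1 match. The AP-1 motif TGANTCA was in 0 of the 4 windows and in 3.69% of all windows, and TATAAA was in the Cxcl13 window, 33 bases before the start, and in 8.00% of all windows. Cxcl3, Ccl2, Ccl3 and Ccl4 are named without a promoter. A match is a run of letters and was not tested as a binding site.

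Over whole libraries the ligands varied widely between conditions. Cxcl1 was at 3.95 CPM in TOE 4d 24h, at a median of 150 CPM over the 8 libraries and at 317 CPM in TO 2d 0h. Cxcl2 ran from 39.7 CPM in TOE 4d 24h through a median of 372 to 566 CPM in TO 2d 0h, and Cxcl3 from 7.09 through 40.5 to 227 CPM in the same libraries. The ligands other than Cxcl13 were each lowest in TOE 4d 24h, and Cxcr2 was highest there. Cxcr2 was at 6.09 CPM in TO 2d 0h, at a median of 12.3 CPM and at 30.6 CPM in TOE 4d 24h, where neutrophil-like cells were 23.4% of the cells kept. Ccl2 ran from 10.5 to 312 CPM, Ccl3 from 46.7 to 522 CPM and Ccl4 from 3.70 CPM to 96.0 CPM, the last in TOE 2d 24h. Cxcl13 was listed with no UMI in TO 4d 24h and reached 4.15 CPM in TO 4d 4h. A whole-library level mixes the level in each cell class with the share of that class among the cells.

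Cxcl1, a ligand of Cxcr2, was highest in macrophage-like cells among the classes met in every library. Its level there was 1145 ± 819 CPM (SD, n = 8 libraries of different conditions), from 309 CPM in TOE 4d 24h and 319 CPM in TO 4d 24h to 1557 CPM in TOE 2d 24h and 2890 CPM in TO 2d 0h. Both 4d 24h libraries were thus the lowest and the baseline library the highest. Endothelial-like cells followed with 451 ± 231 CPM (n = 7), mesenchymal-like cells with 370 ± 360 CPM, monocyte-like cells with 257 ± 126 CPM and neutrophil-like cells with 28.0 ± 13.9 CPM. The ranges of neighbouring classes in this order overlapped. Compared within each library, macrophage-like cells lay above monocyte-like and neutrophil-like cells throughout. Endothelial-like cells were higher than macrophage-like cells in TO 4d 24h (926 against 319 CPM). Mesenchymal-like cells were higher in TO 4d 4h (1138 against 1008 CPM). In mesenchymal-like cells Cxcl1 was at 629 CPM in TO 2d 0h, 212 in TO 2d 4h, 1138 in TO 4d 4h, 96.3 in TO 4d 24h, 303 in TOE 2d 4h, 290 in TOE 2d 24h, 282 in TOE 4d 4h and 10.3 in TOE 4d 24h. TO 4d 4h stood highest in that class and TOE 4d 24h lowest.

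Cxcl2, a close relative of Cxcl1, was shared by 3 myeloid classes. Macrophage-like cells held 1387 ± 684 CPM (SD, n = 8), neutrophil-like cells 1146 ± 603 CPM and monocyte-like cells 742 ± 265 CPM. These ranges overlapped, and the lowest monocyte-like library, 210 CPM in TOE 4d 24h, lay within the range of endothelial-like cells, 43.4 to 268 CPM (n = 7). In neutrophil-like cells Cxcl2 was at 711 CPM in TO 2d 0h, 1889 in TO 2d 4h, 1592 in TO 4d 4h, 875 in TO 4d 24h, 1122 in TOE 2d 4h, 1703 in TOE 2d 24h, 1230 in TOE 4d 4h and 43.9 in TOE 4d 24h. All libraries but TOE 4d 24h lay within 711 to 1889 CPM. In mesenchymal-like cells Cxcl2 was 25.3 ± 16.4 CPM and in B-cell-like cells 18.7 CPM on average.

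Cxcl3, the third of these ligands, was at 355 ± 348 CPM (SD, n = 8) in macrophage-like cells and 160 ± 108 CPM in monocyte-like cells, with overlapping ranges. Its highest macrophage-like level was 1151 CPM in TO 2d 0h and its lowest 52.6 CPM in TO 4d 24h. Neutrophil-like cells held 24.4 ± 17.1 CPM and mesenchymal-like cells 13.2 ± 12.6 CPM of Cxcl3. The 3 ligands are close in sequence, and whether reads were shared between them was not tested.

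Cxcr2, the receptor of these ligands, was found mainly in neutrophil-like cells. It was at 110 CPM in TO 2d 0h, 120 in TO 2d 4h, 129 in TO 4d 4h, 106 in TO 4d 24h, 173 in TOE 2d 4h, 81.4 in TOE 2d 24h, 115 in TOE 4d 4h and 159 in TOE 4d 24h, a mean of 124 ± 29.5 CPM (SD, n = 8). The lowest of these 8 values lay above every value of the other classes in libraries with at least 20 of their cells. The next class met in all libraries, mast-cell/basophil-like cells, held 6.46 to 26.9 CPM, monocyte-like cells held 4.40 ± 2.98 CPM and macrophage-like cells 2.23 ± 1.67 CPM. Cells thinned to 2000 UMIs gave at least 1 Cxcr2 UMI in 23.1% of neutrophil-like cells (14.9% to 30.9% over libraries) and in 0.141% of B-cell-like cells. Without thinning the neutrophil-like share was 46.3%, at a median depth of 5218 UMIs against 4332 UMIs in B-cell-like cells. The neutrophil-like cells with the most UMIs of Cxcr2, the top 1% of cells, held 5.69% to 9.53% of its UMIs, so the receptor was spread over many cells.

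Ccl2, the main monocyte attractant, had its highest mean in monocyte-like cells among the classes met in every library, at 707 ± 332 CPM (SD, n = 8). It was at 1180 CPM in TO 2d 0h, 808 in TO 2d 4h, 972 in TO 4d 4h, 603 in TO 4d 24h, 801 in TOE 2d 4h, 662 in TOE 2d 24h, 579 in TOE 4d 4h and 53.1 in TOE 4d 24h. TOE 4d 24h stood far below the others, with 94.1% of its monocyte-like cells in the Mnda-led cluster. The range overlapped that of macrophage-like cells, 249 to 801 CPM, and macrophage-like cells were the higher in TOE 4d 4h and TOE 4d 24h. Mesenchymal-like cells held 280 ± 226 CPM and neutrophil-like cells 72.4 ± 59.8 CPM, the latter from 3.73 CPM in TOE 4d 24h to 153 and 156 CPM in TO 2d 0h and TO 4d 24h.

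Ccl3, an attractant of monocytes and macrophages, was at 1109 ± 410 CPM (SD, n = 8) in monocyte-like cells, 541 ± 287 CPM in neutrophil-like cells, 457 ± 231 CPM in macrophage-like cells and 255 ± 126 CPM in T/NK-cell-like cells. The ranges of these classes overlapped. Compared within each library, monocyte-like cells lay above neutrophil-like cells throughout. They lay above macrophage-like cells except in TOE 4d 24h (252 against 364 CPM). In neutrophil-like cells it was at 633 CPM in TO 2d 0h, 778 in TO 2d 4h, 516 in TO 4d 4h, 677 in TO 4d 24h, 307 in TOE 2d 4h, 967 in TOE 2d 24h, 398 in TOE 4d 4h and 54.6 in TOE 4d 24h. The TOE libraries held both the highest and the lowest of these values. Ccl4, which lies beside Ccl3 and is made by activated T and NK cells and macrophages, differed from it in place: T/NK-cell-like cells had the highest mean at 541 ± 240 CPM, from 271 CPM in TOE 4d 24h to 1016 CPM in TOE 2d 24h. Macrophage-like cells held 330 ± 230 CPM of Ccl4, with 675 CPM in TOE 2d 24h and 633 CPM in TO 2d 0h at the top and 61.1 CPM in TOE 4d 4h at the bottom. The ranges of both classes overlapped, and macrophage-like cells were the higher in TO 2d 0h and TOE 4d 24h. Neutrophil-like cells held 4.53 ± 5.47 CPM of Ccl4.

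Cxcl13 was rare and lay in mesenchymal-like cells. Its 8 levels there were 0.211 CPM in TO 2d 0h, 16.7 in TO 2d 4h, 72.3 in TO 4d 4h, no UMI in TO 4d 24h, 31.0 in TOE 2d 4h, 2.19 in TOE 2d 24h, 1.199 in TOE 4d 4h and 1.48 in TOE 4d 24h. The count of 0 in TO 4d 24h allows up to 0.935 CPM (3 UMIs). Mesenchymal-like cells held 74.9% ± 28.7 of the Cxcl13 UMIs of a library (SD, n = 7 libraries with a UMI), with the lowest share at baseline (33.3% of 3 UMIs) and the highest in TOE 4d 24h (100% of 3 UMIs). In TOE 2d 24h they held 39.2%, and 59 of the 68 macrophage-like Cxcl13 UMIs came from a single cell.

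**Figure D1:**
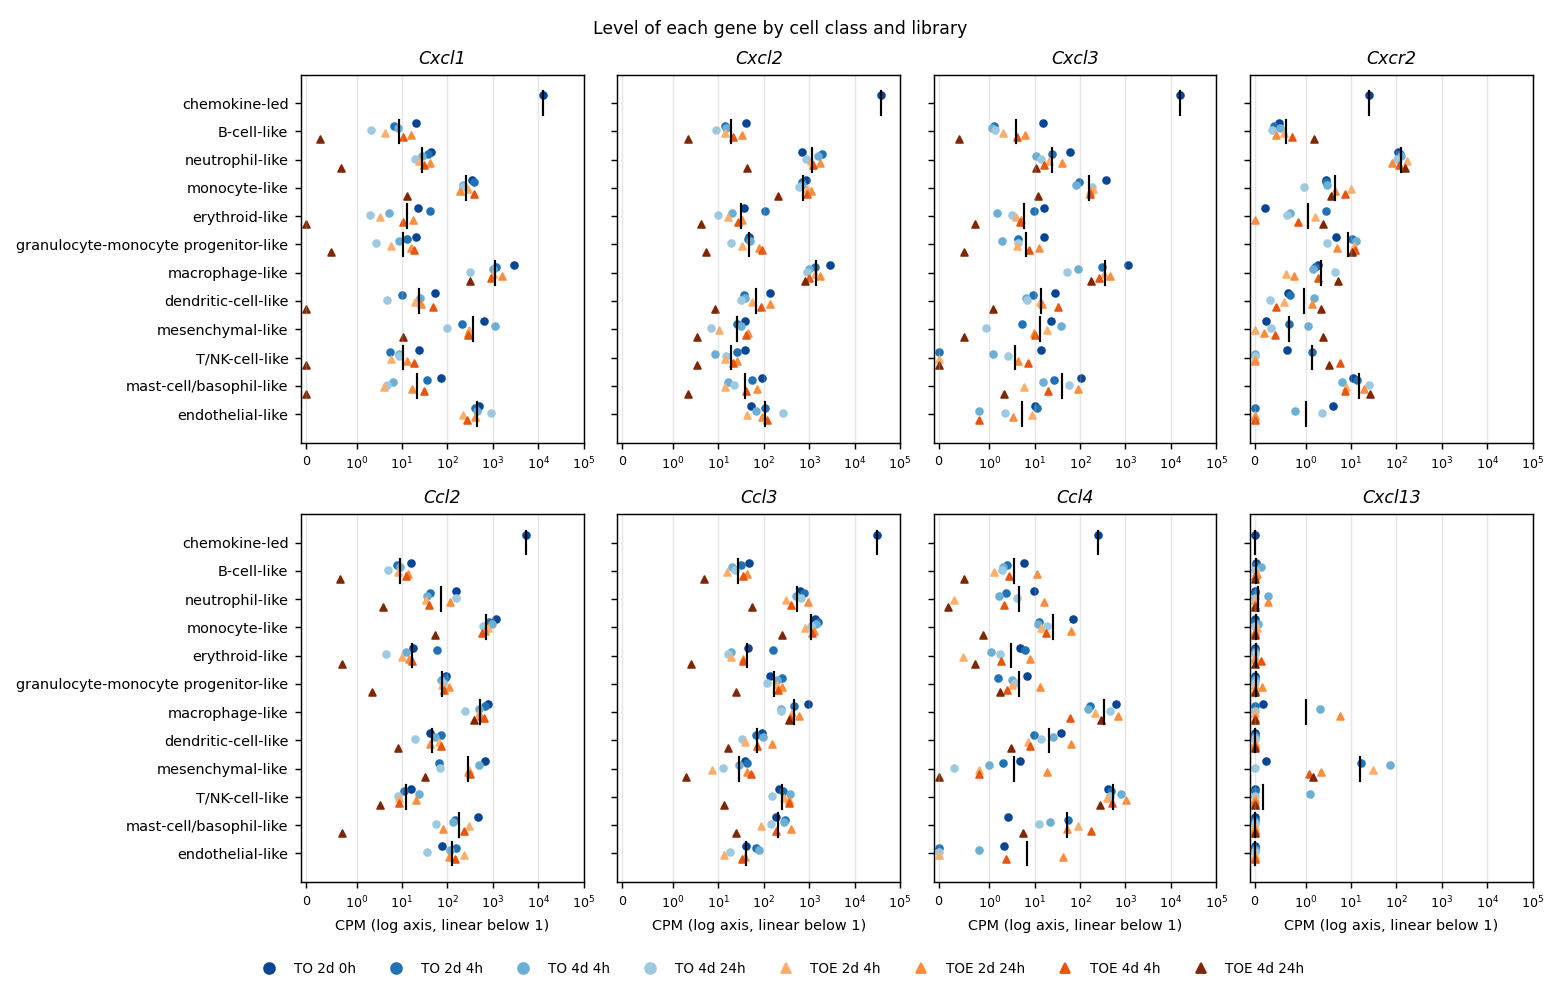
Level of each of the 8 genes (CPM, an axis that is logarithmic above 1 and linear below, 1 panel a gene) in each cell class, with 1 point per library of at least 20 cells (circles for TO, triangles for TOE) and a bar at the mean. Cxcr2 is separate in neutrophil-like cells (81.4 to 173 CPM). The ranges of Cxcl2 and Ccl3 overlap between neutrophil-like, monocyte-like and macrophage-like cells. Cxcl1 ran from 0.696 to 43.9 CPM in neutrophil-like cells and from 309 to 2890 CPM in macrophage-like cells, with no overlap.

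Counted by where the UMIs came from and averaged over the 8 libraries, monocyte-like cells held 44.7% of Cxcl1 UMIs, 46.6% of Cxcl2, 54.5% of Cxcl3, 68.9% of Ccl2 and 64.6% of Ccl3. They were the largest source of Ccl2 and Ccl3 in each of the 8 libraries, but not of the CXC ligands. For Cxcl1, macrophage-like cells led in TO 2d 0h (45.0%) and TOE 2d 24h (54.9%) and mesenchymal-like cells in TO 4d 4h (39.1%), and over all UMIs pooled macrophage-like cells held 36.2% against 35.5%. For Cxcl2, neutrophil-like cells led in TO 4d 4h (48.9% against 32.3%) and were level with monocyte-like cells in TO 2d 4h (40.7% against 40.2%). For Cxcl3, macrophage-like cells led in TOE 2d 24h (45.3%) and a cluster led by the members themselves, described next, in TOE 4d 24h (39.4% from 10 cells). In TO 2d 0h that cluster was the largest source of Cxcl2 and Cxcl3, and macrophage-like cells held 25.3% of the Cxcl2 UMIs against 23.9% in monocyte-like cells. Macrophage-like cells, few in number, held 29.5% of Cxcl1 UMIs and 38.0% of Ccl4 UMIs, and T/NK-cell-like cells 25.6% of Ccl4 UMIs. Neutrophil-like cells held 26.6% of Cxcl2 UMIs and 79.8% of Cxcr2 UMIs (68.3% to 90.2%). With the cluster led by the members counted apart, the receptor and its ligands thus lay for the most part in different classes. Cxcl2 was the ligand most shared with the receptor's own class.

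**Figure D2:**
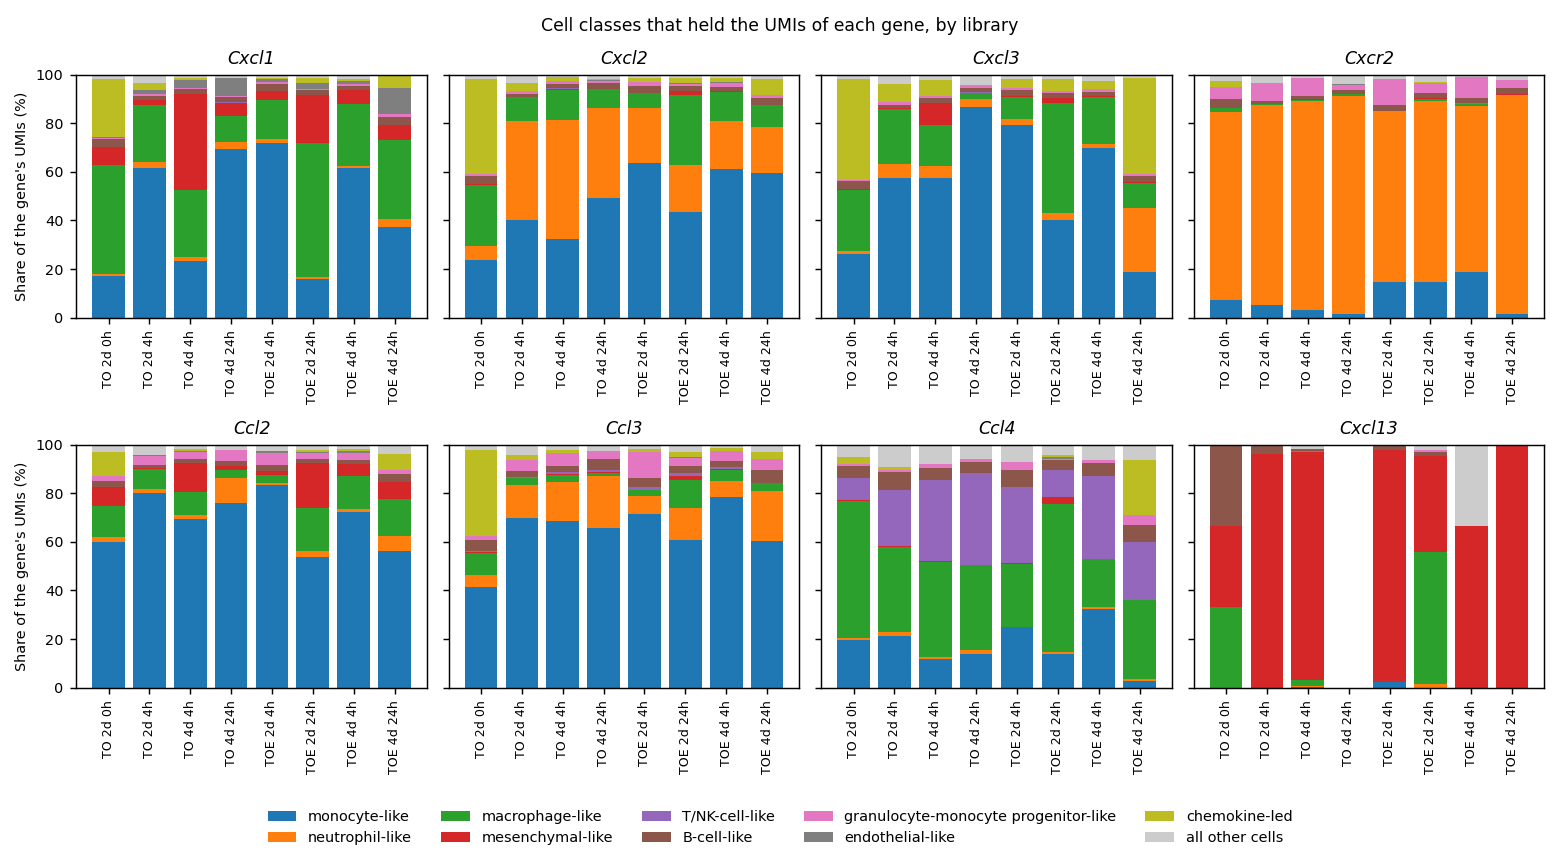
Percent of each gene's UMIs that came from each cell class, in each of the 8 libraries (stacked bars that start at 0 and sum to 100%). Monocyte-like cells held 68.9% of Ccl2 UMIs and neutrophil-like cells 79.8% of Cxcr2 UMIs, averaged over libraries.

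A small cluster was led by the members themselves. It held 339 cells, 287 of them from TO 2d 0h, and its leading genes were Cxcl3, Cxcl2, Ccl3 and Cxcl1, so its levels follow from the clustering. In TO 2d 0h it was at 38042 CPM of Cxcl2, 31920 CPM of Ccl3, 16263 CPM of Cxcl3, 12866 CPM of Cxcl1 and 5266 CPM of Ccl2, with 25.5 CPM of Cxcr2 and no Cxcl13 UMI. It supplied 39.1% of that library's Cxcl2 UMIs, 41.6% of its Cxcl3, 35.5% of its Ccl3, 23.6% of its Cxcl1 and 9.81% of its Ccl2. The cells gave a median of 2548 UMIs. They were left without a cell type name by rule, because 3 or more members were among their leading genes. Neutrophil was the best match, with 7 of 10 markers raised. In TO 2d 0h their neutrophil marker sum was 6317 CPM (0 of 10 markers at 0). It was 312100 CPM in neutrophil-like, 8706 CPM in monocyte-like and 1558 CPM in B-cell-like cells. Their monocyte marker sum was 423 CPM against 3965 CPM in monocyte-like cells. The neutrophil-like levels of TO 2d 0h leave these cells out. Il23a, Ifit3, Isg15 and Slfn4 were also among its leading genes. Of the genes listed as inflammatory inducers and NF-κB targets, Nfkbia, which encodes an inhibitor of NF-κB, was at 11510 CPM, Il1b at 4081 CPM and Clec4e at 3533 CPM. The whole-library highs of TO 2d 0h for Cxcl2 and Cxcl3 therefore rested in large part on 287 cells.

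The share of cells with a UMI was set beside that of B-cell-like cells, the class taken as a reference. Whether the UMIs of B-cell-like cells came from free RNA or from expression, which activated B cells can show for Ccl3 and Ccl4, was not tested. After thinning to 2000 UMIs, 47.8% of macrophage-like cells held a Cxcl2 UMI (63.2% without thinning, median depth 14040 UMIs), 38.4% of monocyte-like cells (13360 UMIs) and 32.1% of neutrophil-like cells (5218 UMIs), against 3.73% of B-cell-like cells. For Cxcl1 the shares were 36.3% of macrophage-like, 16.9% of monocyte-like and 3.62% of neutrophil-like cells, against 1.60% of B-cell-like cells. For Cxcl3 they were 18.5%, 14.3% and 2.28% in the same order, against 0.810%. The neutrophil-like shares of Cxcl1 and Cxcl3 thus exceeded those of B-cell-like cells by far less than that of Cxcl2 did. Monocyte-like cells held a Ccl3 UMI in 60.2% and a Ccl2 UMI in 40.9% of cells, against 5.58% and 1.95% of B-cell-like cells. T/NK-cell-like cells held a Ccl4 UMI in 26.7% of cells (40.0% without thinning, median depth 7491 UMIs) against 0.702% of B-cell-like cells, and mesenchymal-like cells a Cxcl13 UMI in 1.89% (6.42% without thinning, 31310 UMIs) against 0.002%.

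Ligands were found together in the same cells. Among thinned neutrophil-like cells with a Cxcl2 UMI, 39.3% to 70.5% also held a Ccl3 UMI, against 4.93% to 30.2% of those without, and the share was higher in 8 of 8 libraries. In macrophage-like cells with a Cxcl2 UMI, 35.2% to 77.0% held a Cxcl1 UMI against 3.39% to 17.7%, higher in 7 of 7 libraries, and in monocyte-like cells 6.06% to 45.9% against 0.348% to 9.33%, higher in 8 of 8. The receptor did not follow this: neutrophil-like cells with a Cxcl2 UMI held a Cxcr2 UMI more often in 5 of 8 libraries, at 12.95% to 31.15% against 16.6% to 32.2%. These shares were taken over whole classes, and neutrophil-like clusters differ in Cxcl2 and Cxcr2, as given next. The part of that mixture of clusters in the joint detection was not tested. For some pairs a few cells carried the level, since the top 1% of neutrophil-like cells held 46.9% to 100% of Cxcl3 UMIs. They held 43.4% to 68.9% of Cxcl1 UMIs in 7 libraries, with TOE 4d 24h left out at 11 UMIs. For Cxcl2 they held 12.6% to 20.7% of UMIs in the libraries other than TOE 4d 24h, where it was 85.0%.

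Within the neutrophil-like class the members sorted by cluster. The Hcar2-led cluster carried Cxcl2 at 1781 CPM in TO 2d 0h, 4399 in TO 2d 4h, 4453 in TO 4d 4h, 1353 in TO 4d 24h, 4757 in TOE 2d 4h, 3103 in TOE 2d 24h, 4449 in TOE 4d 4h and 583 in TOE 4d 24h. The 4 libraries taken 4 h after a session time lay between 4399 and 4757 CPM and the others between 583 and 3103 CPM. The 4 h libraries also stood apart in monocyte-like and B-cell-like clusters, and whether this Cxcl2 difference is particular to the Hcar2-led cluster was not tested. The cluster led by Ngp, a secondary granule gene of maturing neutrophils, held 2.98 to 115 CPM of Cxcl2, and that led by Mmp8, a collagenase of late neutrophils, 4.08 to 54.8 CPM. Neither range met that of the Hcar2-led cluster. Cxcl2 took part in forming these clusters, so its separation between them is a description of the clusters. Cxcr2 was placed differently and was highest in the Mmp8-led cluster in every library, at 180 to 347 CPM, against 76.5 to 176 CPM in the Hcar2-led and 56.2 to 123 CPM in the Ngp-led cluster. The Hcar2-led cluster made up 49.1% of neutrophil-like cells in TO 2d 0h, 60.5% in TO 2d 4h, 50.7% in TO 4d 4h, 74.2% in TO 4d 24h, 33.9% in TOE 2d 4h, 64.1% in TOE 2d 24h, 39.4% in TOE 4d 4h and 8.44% in TOE 4d 24h. For each of the 3 pairs the TOE library held the smaller share of this cluster, which carries most of the neutrophil-like Cxcl2.

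**Figure D3:**
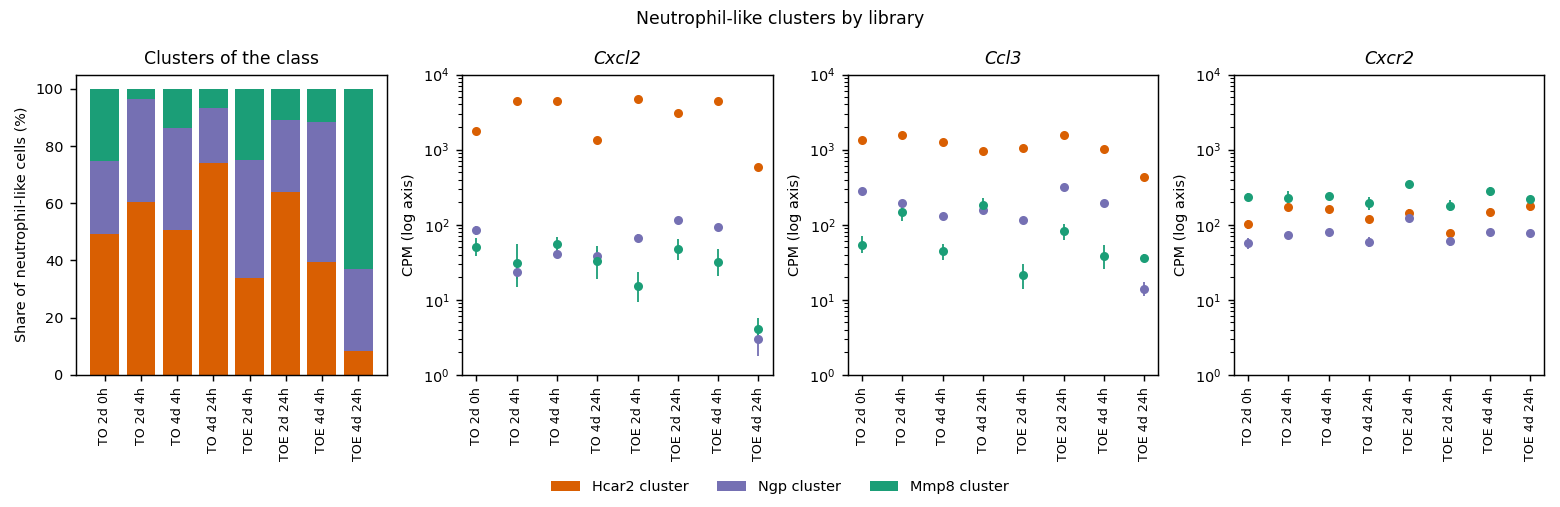
Share of neutrophil-like cells (percent, stacked bars) in the clusters led by Hcar2, Ngp and Mmp8, and levels of Cxcl2, Ccl3 and Cxcr2 in them (CPM, log axis, points with 95% intervals of counting error), in each of the 8 libraries. Cxcl2 lies highest in the Hcar2-led cluster (583 to 4757 CPM) and Cxcr2 in the Mmp8-led cluster (180 to 347 CPM). Cxcl2 took part in forming the clusters.

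TO and TOE were set side by side in each class as ratios of CPM, and members with at least 50 UMIs summed over both libraries were counted as 2-fold higher or lower in TOE. In neutrophil-like cells at 2d 4h, 0 of 6 members counted were 2-fold higher in TOE (5.55% of all genes counted) and 1 was lower (2.92%). That member was Ccl3, at 778 CPM in TO and 307 CPM in TOE, a ratio of 0.394 (0.375 to 0.414). TO 2d 4h is the library rich in erythroid-like cells, in which Ccl3 was at 161 CPM, and their part in this ratio was not tested. Cxcl2 was at 1889 and 1122 CPM, a ratio of 0.594 (0.578 to 0.610), and Cxcr2 at 120 and 173 CPM, a ratio of 1.44 (1.32 to 1.56). At 4d 4h, 0 members were 2-fold higher (1.29% of all genes) and 0 lower (1.47%), with ratios between 0.772 for Ccl3 and 1.49 for Cxcl3. The median log2 ratio of the members was -0.45 at 2d 4h, beside 0.13 for all genes, and -0.01 at 4d 4h, beside -0.03.

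At 4d 24h the neutrophil-like difference was far larger. Of 6 members 0 were 2-fold higher in TOE (12.5% of all genes) and 4 were lower (10.3%), and their median log2 ratio was -3.97, beside 0.10 for all genes. Ccl2 was at 156 CPM in TO and 3.73 CPM in TOE, a ratio of 0.0239 (0.0181 to 0.0311). Cxcl1 was at 19.1 and 0.696 CPM, a ratio of 0.0365 (0.0179 to 0.0670), Cxcl2 at 875 and 43.9 CPM, a ratio of 0.0502 (0.0464 to 0.0542), and Ccl3 at 677 and 54.6 CPM, a ratio of 0.0807 (0.0750 to 0.0866). All 4 ligands were thus lower in TOE, while Cxcr2 was at 106 and 159 CPM, a ratio of 1.502 (1.39 to 1.62), and Cxcl3 at 13.99 and 10.7 CPM, a ratio of 0.764. For Cxcl3, 132 of the 169 UMIs of TOE came from 1 cell, and without the top cell of each library it was at 13.2 CPM in TO and 2.34 CPM in TOE, so that it was then 2-fold lower too. B-cell-like cells held 2.14 CPM of Cxcl2 in TOE 4d 24h against 9.09 CPM in TO 4d 24h.

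Within the Hcar2-led cluster alone the differences of the 4 h libraries were small. At 2d 4h, 0 of 6 members were 2-fold higher (4.72% of all genes) and 0 lower (2.85%), with Cxcl2 at a ratio of 1.08 (1.05 to 1.11) and Ccl3 at 0.665 (0.629 to 0.703). At 4d 4h, 0 were higher (2.06%) and 0 lower (1.39%), with Cxcl2 at 0.999 (0.976 to 1.02) and Ccl3 at 0.814 (0.776 to 0.854). At both times Cxcl2 was lower in TOE over the whole class, the share of this cluster was smaller and the level within it was near that of TO. Cxcl2 and Ccl3 took part in forming the cluster, so these levels describe it, and the part of the cluster shares in the class difference was not tested. At 4d 24h, where 237 cells of TOE stood against 1535 of TO, 1 of 6 members was 2-fold higher (8.89%) and 4 were lower (9.56%). Cxcl1 had a ratio of 0.266 (0.113 to 0.538), Cxcl2 of 0.431 (0.397 to 0.468), Ccl2 of 0.188 (0.139 to 0.249) and Ccl3 of 0.444 (0.403 to 0.487), and Cxcr2 of 1.46 (1.24 to 1.72). The higher member was Cxcl3 at a ratio of 7.01, but 132 of its 156 UMIs came from 1 cell, and without the top cell of each library it was at 22.0 CPM in TOE and 19.0 CPM in TO.

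**Figure D4:**
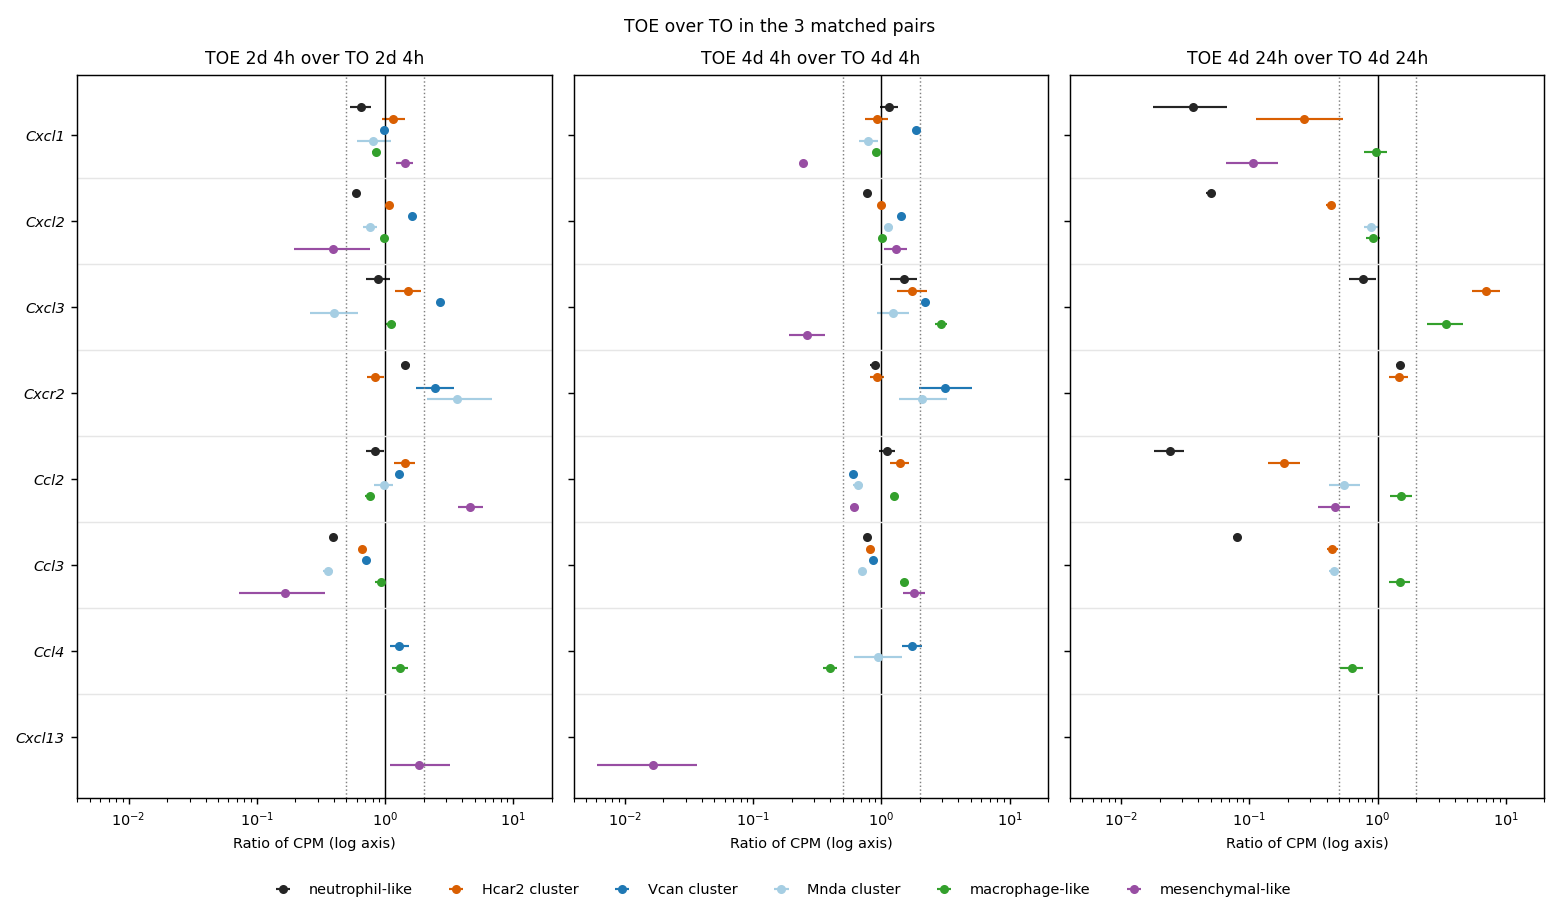
Ratio of TOE over TO in CPM (log axis) for each member with enough UMIs, by cell class or cluster (colours) and by pair (panels), with 95% intervals of counting error; the solid line marks equal levels and dotted lines 2-fold either way. In neutrophil-like cells at 4d 24h Ccl2, Cxcl1, Cxcl2 and Ccl3 lie between 0.0239 and 0.0807 and Cxcr2 at 1.502.

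Among monocyte-like cells the Vcan-led cluster, a large one in the 4 h libraries (51.0% to 73.5% of the class), showed the same members higher in both pairs. At 2d 4h, 2 of 7 members were 2-fold higher in TOE (2.51% of all genes) and 0 lower (2.26%), and at 4d 4h 2 were higher (2.13%) and 0 lower (2.18%). In both pairs these were Cxcl3 and Cxcr2. Cxcl3 was at 107 CPM in TO 2d 4h and 285 CPM in TOE 2d 4h, a ratio of 2.66 (2.53 to 2.80), and at 115 and 253 CPM at 4d 4h, a ratio of 2.20 (2.07 to 2.33). Cxcr2 was low in these cells, at 2.61 and 6.39 CPM (55 and 101 UMIs) at 2d 4h and at 1.85 and 5.78 CPM (22 and 143 UMIs) at 4d 4h. The other CXC ligands moved less: Cxcl2 had ratios of 1.62 (1.59 to 1.65) and 1.43 (1.40 to 1.46), and Cxcl1 of 0.986 (0.956 to 1.02) and 1.88 (1.81 to 1.95). Ccl2 was at ratios of 1.28 and 0.600 in the same order, and Ccl3 at 0.707 and 0.858. The members' median log2 ratio was 0.37 and 0.78, beside 0.05 and -0.07 for all genes. Cxcl3 took part in forming the monocyte-like clusters, so its levels describe them. At 2d 4h the Vcan-led cluster held 73.5% of the class in TO and 51.0% in TOE, and the Mnda-led cluster 14.4% and 41.3%. Over the whole class Cxcl3 was at 95.8 and 190 CPM at 2d 4h, under 2-fold, and at 81.1 and 168 CPM at 4d 4h, past 2-fold. The part of the cluster shares was not tested.

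In the Mnda-led cluster, 1 of 6 members was 2-fold higher in TOE at 2d 4h (2.5% of all genes) and 2 were lower (3.05%), 1 of 7 was higher (2.37%) and 0 lower (1.56%) at 4d 4h, and 0 of 3 were higher (3.51%) and 1 lower (2.29%) at 4d 24h. The higher member was Cxcr2 both times, at 4.96 and 18.1 CPM (14 and 146 UMIs) at 2d 4h and at 5.44 and 11.3 CPM (28 and 143 UMIs) at 4d 4h. The lower ones at 2d 4h were Cxcl3, a ratio of 0.401 (0.259 to 0.621), and Ccl3, at 362 and 129 CPM, a ratio of 0.358 (0.328 to 0.390). For Cxcl3, 18 of 42 UMIs in TO came from 1 cell, and without the top cell of each library it was at 8.58 CPM in TO and 4.98 CPM in TOE, less than 2-fold apart. Ccl3 was the lower member at 4d 24h too, at 442 and 203 CPM, a ratio of 0.459 (0.422 to 0.5002). Cxcr2 was thus 2-fold higher in the Vcan-led and the Mnda-led cluster in both 4 h pairs, from low counts. None of these 4 differences was counted with a minimum of 200 UMIs, and that of the Mnda-led cluster at 4d 4h was lost with a prior of 5 UMIs. The Cd14-led cluster, the main one in TO 4d 24h with 919 cells, had 29 cells in TOE 4d 24h. Their levels were 749 CPM of Ccl2 against 707 in TO, 1158 of Ccl3 against 1116, 1236 of Cxcl2 against 656 and 73.4 of Cxcl1 against 245. These genes took part in placing the cells in that cluster, so the values are a description of it.

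Macrophage-like cells kept their main members at near levels at 2d 4h. There 0 of 6 members were 2-fold higher (2.93% of all genes) and 0 lower (1.59%), with Cxcl1 at a ratio of 0.844 (0.795 to 0.896) and Cxcl2 at 0.975 (0.925 to 1.03). At 4d 4h, 1 member was higher (0.811%) and 1 lower (2.1%). Cxcl3 was at 91.2 CPM in TO and 268 CPM in TOE, a ratio of 2.94 (2.65 to 3.27), and Ccl4 at 153 and 61.1 CPM, a ratio of 0.400 (0.353 to 0.451). At 4d 24h, 1 of 6 was higher (7.73%) and 0 lower (8.61%), with 28 cells in TOE. It was again Cxcl3, at 52.6 and 178 CPM, but 34 of its 68 UMIs in TOE came from 1 cell and without the top cell of each library it was at 46.7 CPM in TO and 92.3 CPM in TOE, just under 2-fold. Ccl4, at 451 and 286 CPM, was at 409 and 173 CPM without those cells and then past 2-fold lower. Cxcl1, at 319 and 309 CPM, had a ratio of 0.970 (0.789 to 1.18), and Cxcl2, at 900 and 828 CPM, of 0.921 (0.814 to 1.04), so neither differed beyond counting error in this class.

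Mesenchymal-like cells were compared in the same way. At 2d 4h, 1 of 5 members was 2-fold higher in TOE (2.23% of all genes) and 2 were lower (3.74%). Ccl2 was at 65.5 CPM in TO and 301 CPM in TOE, a ratio of 4.60 (3.68 to 5.81), but 174 of the 379 UMIs came from 1 cell and without the top cell of each library Ccl2 was at 167 CPM in TOE and 49.5 CPM in TO. Cxcl2, at 26.1 and 10.3 CPM, and Ccl3, at 42.8 and 7.15 CPM, were the lower ones, from 13 and 9 UMIs in TOE. B-cell-like cells of TO 2d 4h and TOE 2d 4h held 14.1 and 13.8 CPM of Cxcl2 and 31.5 and 15.9 CPM of Ccl3. Both mesenchymal-like levels in TOE lay below those of B-cell-like cells, and the part of free RNA was not tested. At 4d 4h, 0 of 6 members were higher (3.29%) and 3 were lower (4.29%). Cxcl1 was at 1138 and 282 CPM, a ratio of 0.247 (0.233 to 0.262), and Cxcl3 at 37.6 and 9.99 CPM, a ratio of 0.266 (0.192 to 0.362). Cxcl13 was at 72.3 and 1.199 CPM, with 438 UMIs in TO and 6 in TOE, a ratio of 0.0166 (0.00606 to 0.0364). It was found in 54 of 180 cells (30.0%) in TO 4d 4h and in 5 of 183 cells (2.73%) in TOE 4d 4h. At 2d 4h Cxcl13 went the other way at 16.7 and 31.0 CPM, where the 25 UMIs of TO came from 1 cell and the 39 of TOE from 5 cells.

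At 4d 24h, 0 of 2 members counted in mesenchymal-like cells were 2-fold higher in TOE (10.2%) and 2 were lower (3.12%), which were Cxcl1, at 96.3 and 10.3 CPM, a ratio of 0.107 (0.0654 to 0.167), and Ccl2, at 69.2 and 32.0 CPM, a ratio of 0.462 (0.345 to 0.611). Cxcl12, a stromal ligand that holds leukocytes in the marrow, was at 244 CPM in TO 4d 24h and 2.46 CPM in TOE 4d 24h in the same class, and at 736 and 106 CPM at 2d 4h and 126 and 18.6 CPM at 4d 4h. Cxcl10, a ligand of Cxcr3, was at 7.35 and 54.9 CPM at 2d 4h, 16.2 and 6.20 CPM at 4d 4h and 3.74 and 18.7 CPM at 4d 24h. Of the listed CXC ligands other than the members, 1 of 3 was 2-fold higher and 1 lower at 2d 4h (2.23% and 3.74% of all genes). At 4d 4h 0 of 6 were higher and 3 lower (3.29% and 4.29%), and at 4d 24h 1 of 3 was higher and 1 lower (10.2% and 3.12%). These counts stand on 62 to 183 cells a library. Whether the mesenchymal-like cells of the paired libraries were the same kinds of cell was not tested.

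**Figure D5:**
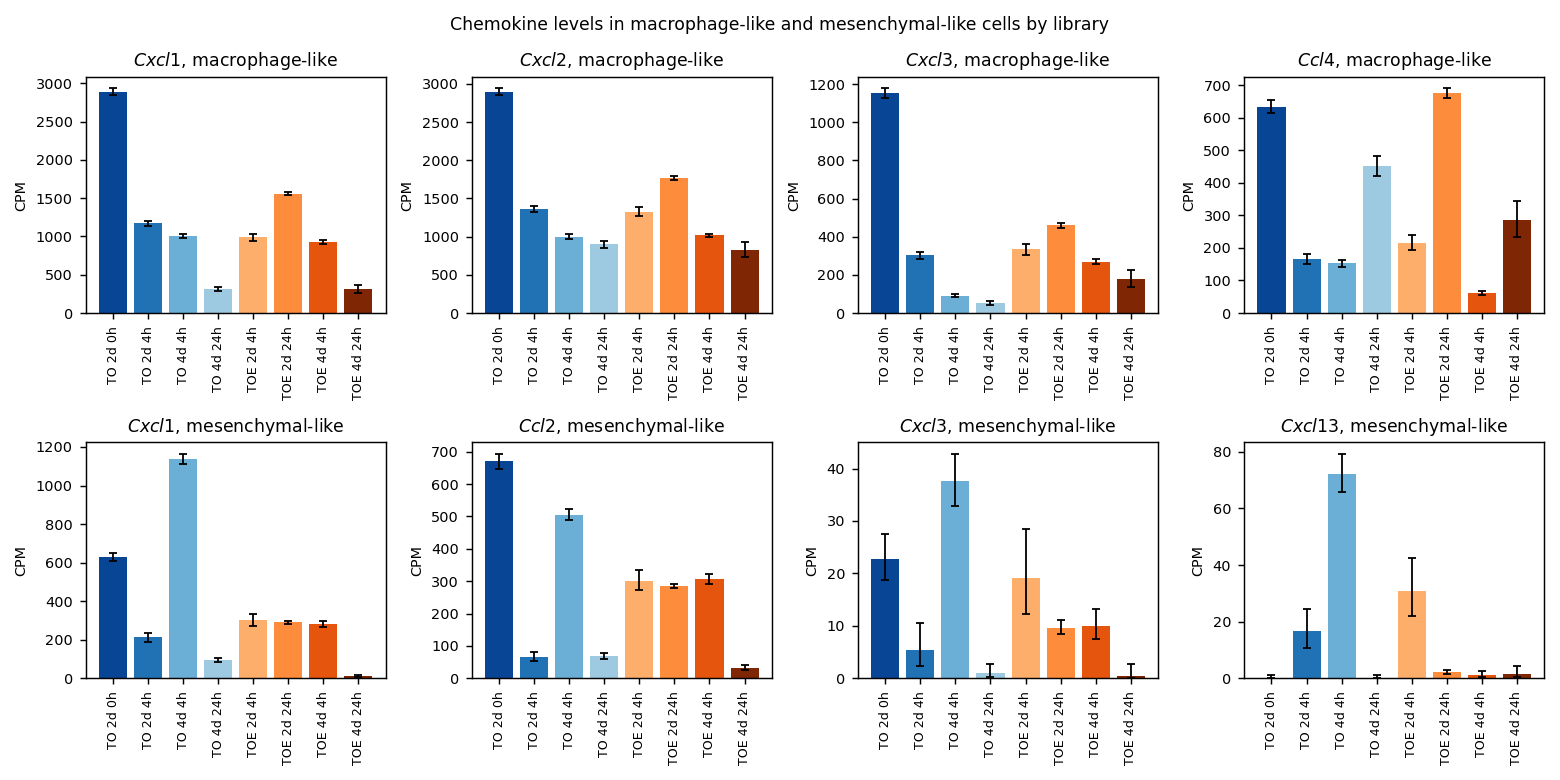
Levels (CPM, linear axes from 0) of Cxcl1, Cxcl2, Cxcl3 and Ccl4 in macrophage-like cells and of Cxcl1, Ccl2, Cxcl3 and Cxcl13 in mesenchymal-like cells, 1 bar per library, with 95% intervals of counting error. Cxcl13 in mesenchymal-like cells was 72.3 CPM in TO 4d 4h and 1.199 CPM in TOE 4d 4h.

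The other chemokine genes were taken from lists of 10 CXC ligands, 18 CC and other ligands and 18 chemokine receptors. Few of them passed the count of UMIs in a single class. In neutrophil-like cells 1 CXC ligand, Pf4, 2 other ligands and 6 receptors were counted at 4d 24h, and of the receptors 0 were 2-fold higher and 4 lower in TOE (12.5% and 10.3% of all genes). Ccrl2, a receptor that binds chemerin without signalling, was at 63.9 CPM in TO and 4.74 CPM in TOE. Of the receptors of the CC members, Ccr1, which binds Ccl3, was at 345 ± 122 CPM (SD, n = 8) in neutrophil-like cells and Ccr2, the receptor of Ccl2, at 330 ± 49.5 CPM in monocyte-like cells. Of 18 genes listed as inflammatory inducers and NF-κB targets, 14 were counted in neutrophil-like cells at 4d 24h, and 0 were higher and 10 lower in TOE, beside the same 12.5% and 10.3% of all genes, with a median log2 ratio of -1.74. Il1b, which encodes interleukin-1 beta, was at 351 and 47.5 CPM, and Nfkbia at 1475 and 229 CPM. In the Hcar2-led cluster alone 3 of the 14 were higher (8.89% of all genes) and 3 lower (9.56%).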

How the data were processed

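Raw UMI counts were used as deposited by the authors, 1 gene-by-barcode matrix a library, made with Cell Ranger 9.0.0. The submitters' processing notes also list Seurat, R 4.0.3 and the builds GRCh38 and mRatBN7.2, with no roles. Here, a barcode was kept if it had 200 genes or more and a mitochondrial share of UMIs of 20% or less, and doublets were removed at a score of 0.25. Counts were scaled to 10000 per cell and logged, and 2000 variable genes, 30 components and 15 neighbours were clustered with Leiden at resolution 1 (scanpy 1.11.5, igraph 0.11.9, python 3.11.15). A class was named from its markers, but a cluster with 3 or more members among its 10 leading genes was left without a cell type. UMIs were then summed by class and library and given as CPM. Levels needed at least 20 cells, and pairs 50 UMIs, with a prior of 0.5 UMI for log2 ratios. Ratios carry exact conditional intervals, shares Clopper-Pearson and levels Poisson intervals, all at 95%. The deposited barcodes held 95954800 to 144146202 UMIs a library and the kept cells 90987814 to 135406897, which set the counting precision. The code was tested on simulated data.

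The members and lists were chosen with earlier results of these data known. The text names the 8 members. Of the lists it names at most 10 genes a list where they are highest, at most 10 a class and pair past 2-fold, and genes among the 5 most like each member. Some genes that this rule names are not reported here. Other resolutions, filters, depths, count minimums, priors, folds, scalings and kept doublets were tried. Monocyte-like cells were planned as a class and compared by cluster, and only the 3 pairs with both libraries analysed here were compared.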

Additional observations from a re-analysis of the deposited data

Results flagged for a closer look

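In 7 cases the TOE over TO difference of a member in 1 cell type past 2-fold stood beside one past 2-fold in the opposite direction in another pair of the same cell type or another cell type of the same pair, each with an interval clear of equal levels. The differences between them were not tested. In mesenchymal-like cells Ccl2 had a log2 ratio of 2.20 at 2d 4h and -1.11 at 4d 24h. Cxcl3 had log2 ratios of 1.41 (2d 4h) and 1.14 (4d 4h) within the Vcan-led monocyte-like cluster, and of 1.55 at 4d 4h in macrophage-like cells. In the other direction, Cxcl3 had a log2 ratio of -1.32 at 2d 4h in the Mnda-led cluster and of -1.90 at 4d 4h in mesenchymal-like cells. Cxcl3 took part in forming the Vcan-led and Mnda-led clusters, so its opposite ratios there describe those clusters. The Ccl2 value at 2d 4h rested on 174 of 379 UMIs from 1 cell. The Cxcl3 value of the Mnda-led cluster rested on 18 of 42 UMIs of TO from 1 cell, and without the top cell of each library the levels were 8.58 CPM in TO and 4.98 CPM in TOE, under 2-fold.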

How the results depend on the processing

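No fit across the 3 times with time as a block was made, since the members were chosen with these differences known. Of the main results under alternatives, 220 kept within their limits and 31 moved, of the other values 249 and 41, and 0 reversed. A count of members past 2-fold holds no direction and so could not reverse. By direction, Cxcl2 at 2d 4h was lower in TOE over all neutrophil-like cells and higher within the Ngp-led cluster. Leaving out TO 2d 0h or TOE 4d 24h, the counts within each neutrophil-like cluster and leaving out the top cell of each library were chosen after seeing the data. The causes of the changes were not tested. At Leiden resolution 0.5, neutrophil-like Cxcr2 was 84.3 CPM. Unthinned shares of cells with a UMI were higher, as deeper cells were then compared: macrophage-like Cxcl2 63.2% and Cxcl3 31.8%, neutrophil-like Cxcr2 46.3% (13% at 1000 UMIs), monocyte-like Ccl2 59.4%, T/NK-cell-like Ccl4 40.0% and mesenchymal-like Cxcl13 6.42%. The number of members past 2-fold in neutrophil-like cells at 2d 4h was 0 within the Hcar2-led cluster, and 2 with a minimum of 20 UMIs (12.1% of all genes), at Leiden resolution 0.5 (7.44%) and at 2 (8.15%). At 2d 4h it was 1 within the Ngp-led cluster, Cxcl2, higher in TOE (4.28%), and 1 within the Mmp8-led cluster, Ccl3, lower (4.08%). Within the Ngp-led cluster it was 2 at 4d 4h, both higher in TOE, and 2 at 4d 24h, both lower, and within the Mmp8-led cluster 2 at 4d 24h, both lower (1.33%, 6.08% and 9.45% of all genes). With a minimum of 200 UMIs, where 2.20% to 14.7% of all genes passed, it was 1 in the Vcan-led cluster at 2d 4h and 4d 4h, 1 and 0 in the Mnda-led cluster at 2d 4h and 4d 4h, 0 in macrophage-like cells at 4d 24h and 1 in mesenchymal-like cells at 2d 4h. In the Mnda-led cluster it was 3 at 4d 24h with a minimum of 20 UMIs (10.02%) and 0 at 4d 4h with a prior of 5 UMIs (3.23%). Leaving out the top cells changed the side of 2-fold for Cxcl3 in 4 comparisons and for Ccl4 and Cxcl13 in 1 each. Past 1.5-fold in place of 2-fold, where 15.1% to 37.8% of all genes passed, it was 3 in neutrophil-like cells at 2d 4h, 5 in the Vcan-led cluster at 4d 4h, 2 in the Mnda-led cluster at 4d 4h and 4d 24h, 3 in macrophage-like cells at 4d 24h, 5 in mesenchymal-like cells at 4d 4h, and 2 and 1 in the Hcar2-led cluster at 2d 4h and 4d 4h. Depth limits the rare members: Cxcl13 had 673 UMIs in all, and Cxcl3 and Ccl2 in small classes could rest on 1 cell.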

Other observations

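Over 88 sums of a class and a library, and 16363 genes, the genes whose log2 levels ran most like a member (Pearson's r, given as a description, since sums share libraries and depth) differed between members. Ccl2 was among the 5 genes nearest Cxcl1 (r = 0.84). Il1b was nearest Cxcl2 (r = 0.90), with Tlr2, a receptor of bacterial lipoproteins (r = 0.89), Nos2 (r = 0.87) and Il1rn (r = 0.86) after it. Plin2, a lipid droplet protein, was nearest Cxcl3 (r = 0.86), followed by Il1a (r = 0.83). Cxcr2 ran with genes of mature neutrophils, Aqp9 and Padi4 (both r = 0.92) and Dgat2 (r = 0.90). Ccl7, the neighbour of Ccl2 on chromosome 10, was nearest Ccl2 (r = 0.86), with Cd14 next (r = 0.84). Bcl2a1, a survival factor, was nearest Ccl3 (r = 0.86), with Nlrp3 (r = 0.83) and Il1b (r = 0.83) in its nearest 5. Ms4a4a was nearest Ccl4 (r = 0.78), and Cxcl13 ran with stromal genes, Mfap4 (r = 0.80), Tnmd, a tendon gene (r = 0.79), and Has2, a hyaluronan synthase (r = 0.78). Ranks changed with the measure: by Spearman's correlation 2 of the 5 genes were shared for Cxcl1, Cxcl2 and Cxcr2, 1 for Cxcl3 and 0 for Cxcl13.

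In the Hcar2-led cluster at 4d 24h, where the ligands Cxcl1, Cxcl2, Ccl2 and Ccl3 were lower in TOE, 5 of 6 heat shock genes and 5 of 8 immediate-early genes were 2-fold higher in TOE, beside 8.89% of all genes. Hsph1 was at 113 CPM in TO and 656 CPM in TOE, Hspa8 at 653 and 3199 CPM, Jun at 942 and 3802 CPM and Egr1 at 360 and 1453 CPM. Osm, a cytokine of the interleukin-6 family, was also higher there, at 227 and 731 CPM. Over all neutrophil-like cells 0 of 6 heat shock genes and 0 of 8 immediate-early genes were higher, beside 12.5% of all genes. Atf3, an immediate-early gene, was lower in TOE over that class, at 175 and 41.2 CPM. These values stand on 237 cells of 1 library, and their part in the chemokine levels was not tested.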
